A study of Mus musculus with 7 samples.

Results

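The amino acid transporter genes Slc3a1, Slc3a2, Slc7a7, Slc7a8, Slc7a9, Slc7a13, Slc6a13, Slc6a18 and Slc6a19 were described in single cells of whole mouse kidney. They were taken by name from the SLC3, SLC6 and SLC7 families, and all 9 were found among the 16272 genes measured. The data came from 7 healthy kidneys of C57BL/6 mice of 4 to 8 weeks: 1 sample each of the genotypes Cdh16CremTmG and SclCremTmG, 1 of a further genotype not described here, and 4 of WT. In Cdh16CremTmG and SclCremTmG mice a Cre recombinase driven by a gene of tubule epithelium (Cdh16) or of blood and endothelial cells (Scl) acts on the mTmG reporter, which changes the fluorescent protein of the cells where Cre is active. The deposited matrix held 43745 cells, where the labels state 57979, and gave each cell a cluster number of 1 to 16. The number that ends each cell barcode gives 7 libraries. Which mouse each of them came from is not given in the sources used here, so genotypes were not compared and the libraries were treated as 7 kidneys of 1 kind. For clusters and cell classes, p-values measure the spread left between summed counts of these 7 libraries after a term for the library. For pairs of genes in the same cells, they measure the spread between the 7 libraries.

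The proximal tubule takes back nearly all filtered amino acids. Uptake from the tubule fluid runs through sodium-coupled carriers of the SLC6 family and through exchangers built of a heavy and a light chain joined by a disulfide bond, and exit to the blood side runs through a second set of such exchangers. Slc3a1 encodes rBAT, the heavy chain on the luminal side, and its light chain Slc7a9 (b0,+AT) carries cystine and cationic amino acids; loss of either gene causes cystinuria in humans. Slc7a13 (AGT1) is a further light chain that pairs with rBAT in the last segment of the mouse proximal tubule. Slc6a19 (B0AT1) takes up neutral amino acids and is the gene of Hartnup disorder, and Slc6a18 (B0AT3) takes up glycine and other neutral amino acids in mice. Slc3a2 (4F2hc, CD98) is the heavy chain of the blood side and of many other cells, with Slc7a7 (y+LAT1, the gene of lysinuric protein intolerance) and Slc7a8 (LAT2) among its light chains. Slc6a13 (GAT2) carries GABA and taurine.

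The libraries held 1383 to 14136 cells and 4217169 to 49997616 UMIs (unique molecular identifiers, each counting 1 captured transcript), with a median of 1630 to 3115 UMIs a cell. Cluster 3 was the largest, with 26482 cells. It is called proximal-like because 9 of 10 proximal tubule markers had their highest mean level there. The tenth, Gatm, was highest in cluster 9. Of 5 cell cycle markers, Mki67 and Cenpf were also highest in cluster 9, and 3 (Top2a, Birc5 and Ube2c) were highest in cluster 16. By markers of other types cluster 4 was loop-like, 5 distal-convoluted-like, 6 principal-like and 7 intercalated-like. Likewise 10 was monocyte-like, 11 macrophage-like, 13 B-lymphocyte-like and 14 T-lymphocyte-like, and cluster 1 joined endothelial and mural markers. Of 5 intercalated markers, 3 were highest in cluster 7, and Slc26a4 and Foxi1 in cluster 8, which was grouped with the collecting duct. The loop marker Kcnj1 was highest in cluster 6, and 4 of 4 red blood cell markers in cluster 3. Of 42757 barcode sequences, 974 occurred in more than 1 library, in 1962 cells. Library 7 stood apart: it held 39497 UMIs of Xist, against at most 8 in any other library, and 0 UMIs of 4 Y-linked genes (Ddx3y, Uty, Kdm5d, Eif2s3y), which a count of 0 limits to 0.208 CPM (UMIs of the gene per 1000000 UMIs of all genes), against 126 to 166 CPM in the other 6. The labels do not state the sex of the mice.

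On mouse build GRCm38 the 9 genes lie on 7 chromosomes. Slc6a18 (13:73661752-73678023) and Slc6a19 (13:73679745-73704865) are neighbours on the minus strand of chromosome 13, with 1721 bases between them. Slc7a7 (14:54369442-54417780) and Slc7a8 (14:54722209-54781946) are both on the minus strand of chromosome 14, 304428 bases apart. The others are Slc3a1 (17:85028376-85064236, plus strand), Slc3a2 (19:8706882-8723369, minus), Slc7a9 (7:35448796-35466036, plus), Slc7a13 (4:19818725-19842218, plus) and Slc6a13 (6:121300227-121337733, plus). No other gene overlaps them on the same strand, while Slc3a1, Slc7a7, Slc6a13 and Slc6a19 are overlapped on the opposite strand by Prepl, Oxa1l, Gm24855 and Slc6a19os, and the sources used here do not say whether reads were counted by strand.

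RefSeq (GRCm38.p6) gave 14 start windows of 300 bases, 250 before to 50 after an annotated start, for 7 of the 9 genes, all but Slc7a13 and Slc6a18. They were searched on both strands for GTTAAT, the core letters bound by HNF1, and for CAAAGTCCA, letters bound by HNF4, since both factors are known regulators of proximal tubule genes; the motifs do not overlap each other. GTTAAT was in 3 of the 14 windows, or 21.4%, and in 7.10% of all 32851 windows, and CAAAGTCCA was in 1 of the 14 and in 0.475% of all. The Slc3a1 window held both, GTTAAT as its reverse complement ATTAAC, and 1 of 5 Slc7a7 windows and 1 of 3 Slc6a13 windows held GTTAAT. The Slc6a13 match was also the reverse complement. The windows below are shown because their genes are the heavy chain of the luminal exchanger, its light chain and the light chain of the blood side, each read 5′ to 3′ in the direction of the gene, with motif matches in capitals. The Slc7a7 window is the 1 of its 5 with a match and was chosen for that. No Slc7a9 window had a match, and the most upstream of them is shown. The only window of Slc7a8, the other light chain of the blood side, had no match and is not shown.
Slc3a1 (chr17:85028097-85028396, plus strand): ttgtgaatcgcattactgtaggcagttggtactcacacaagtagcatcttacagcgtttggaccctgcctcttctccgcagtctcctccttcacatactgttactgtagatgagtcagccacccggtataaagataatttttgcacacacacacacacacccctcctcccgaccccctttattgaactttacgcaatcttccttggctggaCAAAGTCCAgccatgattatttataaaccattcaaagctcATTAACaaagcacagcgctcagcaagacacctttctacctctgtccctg
Slc7a9 (chr7:35448842-35449141, plus strand): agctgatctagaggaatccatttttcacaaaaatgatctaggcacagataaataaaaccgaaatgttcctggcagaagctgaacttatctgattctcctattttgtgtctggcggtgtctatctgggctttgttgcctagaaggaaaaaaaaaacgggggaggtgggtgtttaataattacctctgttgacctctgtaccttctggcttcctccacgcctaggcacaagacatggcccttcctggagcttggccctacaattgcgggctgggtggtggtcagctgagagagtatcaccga
Slc7a7 (chr14:54409423-54409722, minus strand): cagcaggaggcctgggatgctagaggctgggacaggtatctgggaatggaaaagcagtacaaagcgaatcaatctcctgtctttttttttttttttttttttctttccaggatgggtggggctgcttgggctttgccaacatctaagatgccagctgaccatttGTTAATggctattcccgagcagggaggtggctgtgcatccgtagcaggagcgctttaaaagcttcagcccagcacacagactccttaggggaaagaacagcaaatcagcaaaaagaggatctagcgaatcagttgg

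Of the 9 genes, 7 had their highest mean level in proximal-like cluster 3, and Slc3a2 and Slc7a8, which did not, are the pair of the blood-side exchanger LAT2. Levels are CPM of UMIs summed over the cells of a library and cluster, for sums of at least 5 cells. Among the luminal genes, in cluster 3 Slc3a1 averaged 106 ± 29.1 CPM, Slc7a9 117 ± 23.0 CPM, Slc7a13 288 ± 252 CPM, Slc6a18 141 ± 62.9 CPM and Slc6a19 262 ± 112 CPM (SD, n = 7 libraries). On the blood side, Slc7a7 averaged 133 ± 39.8 CPM, Slc3a2 84.6 ± 26.8 CPM and Slc7a8 110 ± 61.6 CPM there, and Slc6a13 averaged 44.4 ± 6.89 CPM. Slc3a2 was highest in endothelial and mural cluster 1, at 172 ± 59.8 CPM (n = 7), and cluster 3 was ninth of 16 in its order. Slc7a8 was highest in cluster 9, at 183 ± 87.5 CPM over 4 libraries, with cluster 3 next. The highest of the 4 values, 311 CPM, came from 9 cells of library 1, and library 5, with 552 cells, had 161 CPM. For Slc3a1 and Slc7a9 cluster 9 came second, at 89.2 and 101 CPM, and its library range overlapped that of cluster 3. The next clusters were far lower, at 28.4 CPM for Slc3a1 in cluster 12 and 26.9 CPM for Slc7a9 in cluster 1. Over the orders of all 9 genes, clusters 9 and 1 for Slc7a9 were the only neighbours whose library ranges did not overlap.

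**Figure D1:**
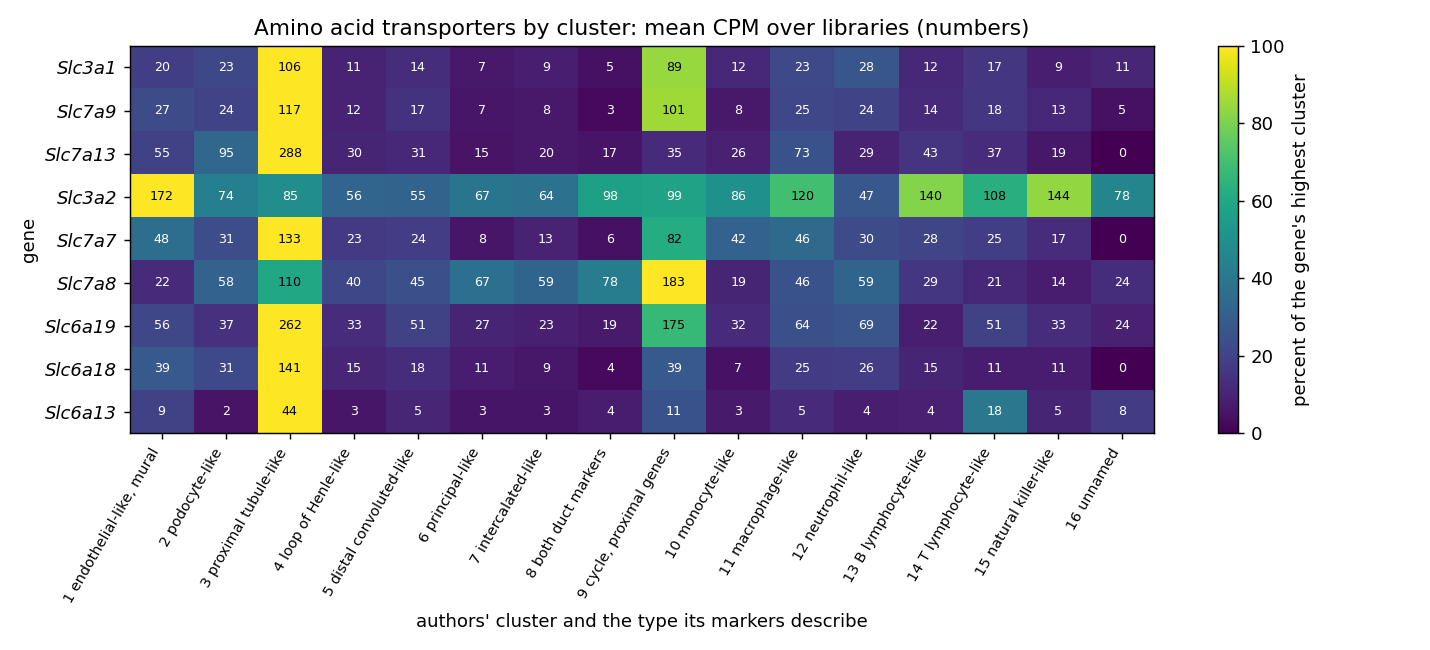
Heat map of the mean level over libraries of each of the 9 genes (rows, CPM as numbers) in clusters 1 to 16 (columns), coloured by the percentage of the gene's highest cluster. All genes but Slc3a2 and Slc7a8 are highest in cluster 3; Slc3a2 is highest in cluster 1 at 172 CPM and Slc7a8 in cluster 9 at 183 CPM.

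Against the other tubule and collecting duct clusters, all tested members were higher in cluster 3, with smaller fold changes for the blood-side genes Slc3a2 and Slc7a8; the differences between genes were not tested. The test compared cluster 3 with the mean of clusters 4 to 8 within libraries (edgeR quasi-likelihood test on summed counts, adjusted p under 0.05 over 7952 genes). Of all genes tested, 29.8% were higher and 29.5% lower in cluster 3, 59.3% in either direction, and 8 of 8 tested members were higher. The clusters were set by the authors on the same counts. The luminal genes and Slc7a7 were higher by a log2 fold of 3.69 ± 0.17 for Slc6a19 to 4.15 ± 0.22 for Slc7a13 (± SE), with 4.02 ± 0.17 for Slc7a9 (edgeR, adjusted p = 7.54e-42), 3.96 ± 0.19 for Slc3a1, 3.95 ± 0.20 for Slc6a18 and 3.74 ± 0.18 for Slc7a7. Slc7a8 was higher by 1.16 ± 0.16 (edgeR, adjusted p = 2.0e-10) and Slc3a2 by 0.60 ± 0.16 (edgeR, adjusted p = 0.000841). Slc3a2 was not higher in cluster 3 than in each of these clusters. It averaged 97.5 CPM in cluster 8 (n = 4 libraries), against 84.6 CPM in cluster 3 (n = 7), and was below cluster 3 there in 2 of 4 libraries. Slc6a13 was too low to pass the filter on low counts; without that filter its log2 fold was 3.97 (edgeR, adjusted p = 6.15e-42). The median was 3.85 over the 8 tested members and -0.00457 over all genes tested. Of 12 tested genes of a list of other amino acid transport genes, 7 were higher and 4 lower in cluster 3, with a median log2 fold of 1.22. Tmem27 (collectrin), which B0AT1 and B0AT3 need at the kidney cell surface, was higher by 3.65 ± 0.16, Slc6a20b by 4.06 ± 0.19 and Slc1a1 (a glutamate carrier) by 3.55 ± 0.19. Slc1a5, a neutral amino acid exchanger, was lower by 4.60 ± 0.19 on the log2 scale, and Slc38a2, a sodium-coupled neutral carrier, was lower by 2.09 ± 0.17.

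RNA of proximal genes was found in every cluster, so the members were set beside 7 abundant proximal genes that are no amino acid carriers (Kap, Miox, Gatm, Slc34a1, Fbp1, Ttc36, Lrp2), each as a percentage of its own level in cluster 3 of the same library. Slc3a2 and Slc7a8 stood above these tracer genes outside the proximal tubule, and the other 7 members did not do so in every library of any cluster. In principal-like cluster 6, Slc7a8 was at 88.3% and Slc3a2 at 81.1% of their cluster 3 level (medians of 6 libraries), while the tracers ran from 5.67% to 12.6% and Slc7a9, Slc3a1 and Slc7a7 were at 6.63%, 7.24% and 6.68%. Slc7a8 in cluster 6 had 44.2, 72.4, 51.6, 52.8, 70.7 and 109 CPM in libraries 1 to 6. Slc7a8 exceeded the highest tracer in every library in clusters 4, 5, 6, 7, 8 and 9, and Slc3a2 did so in 10 clusters (4, 5, 6, 7, 8, 10, 13, 14, 15 and 16). Slc3a2 was at 142% of its cluster 3 level in T-lymphocyte-like cluster 14 (n = 7) and at 212% in cluster 1, where it exceeded the highest tracer in 6 of 7 libraries. Slc6a13 in cluster 14 was at 34.9%, against 20.3% for the highest tracer, and exceeded it in 6 of 7 libraries. Slc7a7 was at 21.8% in monocyte-like cluster 10, against 15.5% for the highest tracer, exceeding it in 6 of 7 libraries, and at 42.0% in cluster 1, against 33.1%, exceeding it in 5 of 7.

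**Figure D2:**
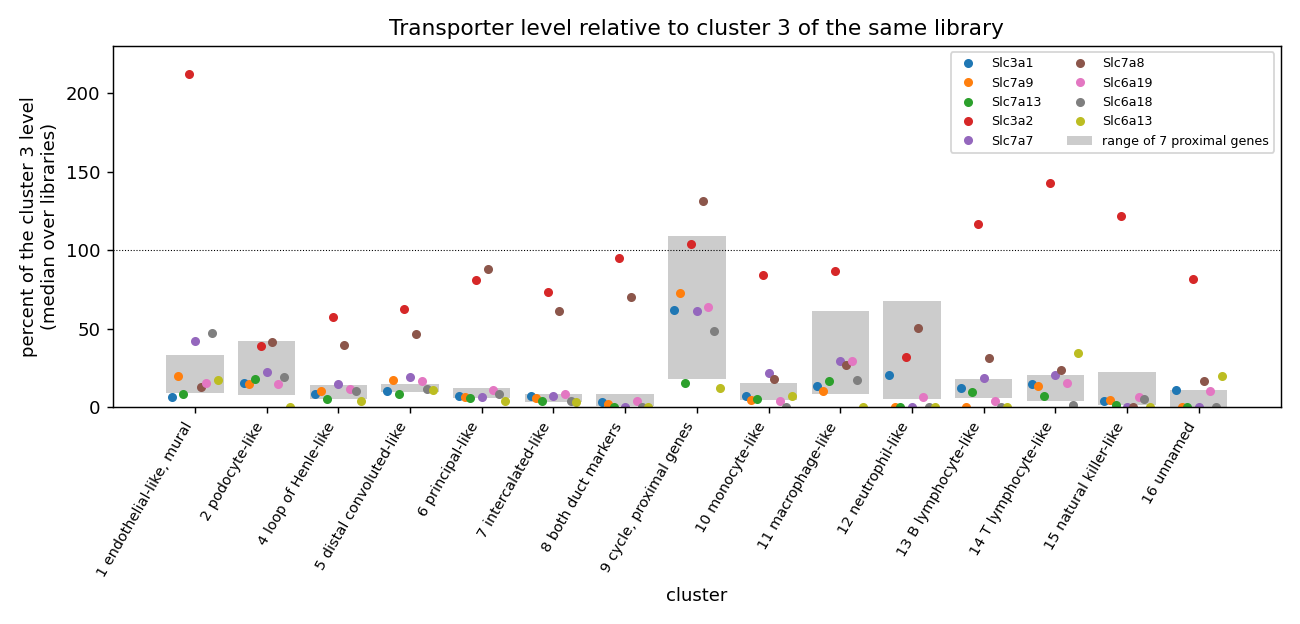
Level of each gene in every other cluster as a percentage of its level in cluster 3 of the same library (points, median over libraries), with the range of 7 proximal tracer genes as grey bars. Slc3a2 and Slc7a8 lie well above the bars in clusters 4 to 8, and the other genes lie within or near them there.

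Shares of single cells with a UMI were compared at equal depth. In cells thinned to 1000 UMIs, Slc6a19 had a UMI in 20.7% of cluster 3 cells and 3.60% of T-lymphocyte-like cells, a type that should lack it (means of 7 libraries). Of the other luminal genes, 9.60% (Slc3a1), 11.2% (Slc7a9), 17.2% (Slc7a13) and 10.8% (Slc6a18) of cluster 3 cells had a UMI, against 1.54% (Slc3a1), 0.703% (Slc7a9), 2.43% (Slc7a13) and 0.795% (Slc6a18) of T-lymphocyte-like cells. Slc7a7 was seen in 12.3% of cluster 3 cells and 1.60% of T-lymphocyte-like cells, Slc7a8 in 9.62% of cluster 3 cells and 2.22% of T-lymphocyte-like cells, and Slc6a13 in 4.48% of cluster 3 cells and 1.69% of T-lymphocyte-like cells. For Slc3a2 the share in cluster 3 was the smaller, at 7.89%, against 10.1% in T-lymphocyte-like cells. In principal-like cluster 6, 8.29% of cells had a UMI of Slc3a2 and 5.52% of Slc7a8, against 0.330% of Slc7a9 (means of 6 libraries). Without thinning, Slc6a19 was seen in 35.8% of cluster 3 cells and 7.05% of T-lymphocyte-like cells, at median depths of 2281 UMIs in cluster 3 and 1875 UMIs in T-lymphocyte-like cells. Free RNA was not estimated.

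Between libraries, the members differed most in Slc7a13. In cluster 3 it had 160, 190, 545, 516, 23.6, 577 and 0.752 CPM in libraries 1 to 7, the last from 8 UMIs (95% Poisson interval 0.325 to 1.48 CPM, counting error only). Libraries 3, 4 and 6 were high, library 5 was low and library 7 was near 0. Library 7 is the library with Xist and without Y-linked UMIs, and its level of Kap, a proximal gene known to respond to androgens in mice, was also the lowest, at 166 CPM, with 1628 CPM in library 5 and 10287 to 40181 CPM in the others. The part of sex in the level of Slc7a13 was not tested. The luminal neutral carrier Slc6a19 had 396, 277, 128, 90.2, 289, 311 and 343 CPM, and Slc7a8 had 140, 94.2, 39.4, 31.5, 155, 109 and 201 CPM. Libraries 3 and 4 were lowest for both, and also for Slc3a2 (51.4 and 50.5 CPM, against 78.3 to 118 in the others), Slc7a7 (84.1 and 74.1, against 135 to 176) and Slc7a9 (98.6 and 75.3, against 121 to 143). For Slc6a18 they were the highest, at 196 and 218 CPM, with 69.8 to 176 CPM in the others. Slc6a13 varied least, from 32.8 to 52.9 CPM, with a coefficient of variation of 15.5%, against 87.6% for Slc7a13.

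**Figure D3:**
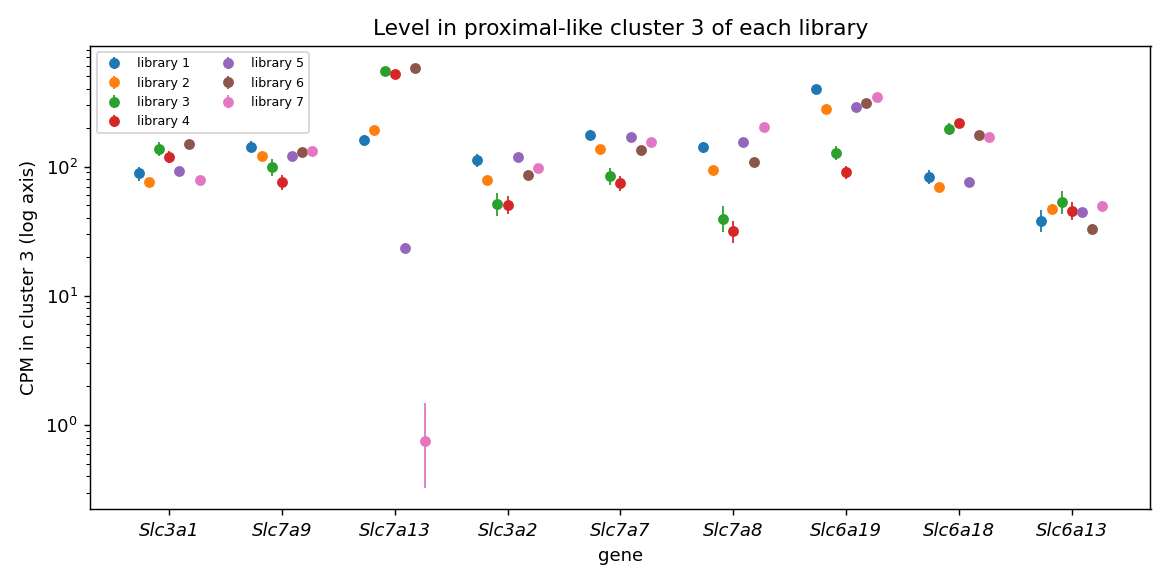
Level of each gene (CPM, log axis) in cluster 3 of libraries 1 to 7, with 95% Poisson intervals that cover counting error only. Slc7a13 runs from 0.752 to 577 CPM, and Slc6a19, Slc7a8 and Slc7a7 are lowest in libraries 3 and 4.

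Along the proximal tubule, the 9 members split into opposite groups. Slc7a13, Slc6a18, Slc6a13 and Slc3a1 were higher in late-marker cells of cluster 3, and Slc7a8, Slc6a19, Slc7a7, Slc3a2 and Slc7a9 were higher in early-marker cells. Late-marker cells held at least 2 UMIs of 10 genes of the late segment (such as Slc22a30, Slc5a8 and Atp11a) and none of 4 genes of the early segment (Slc5a2, Slc5a12, Slc2a2 and Slc4a4), and early-marker cells the converse; no member is a marker. There were 1473 late-marker and 7494 early-marker cells, while 11676 cells of cluster 3 held UMIs of both lists, 3294 held 1 marker UMI in all and 2545 held none. The late share of the cells in either class was 61.6% and 67.9% in libraries 3 and 4 and 3.62% to 26.7% in the other 5. In cluster 3 of library 7 some late markers were low, named here after their values were seen: Slc22a30 was at 24.7 CPM, against 98.9 to 393 in the other 6, Atp11a at 38.0 CPM, against 108 to 492, and Acsm3 at 0.0940 CPM, from 1 UMI, against 3.27 to 352. Slc5a8, at 112 CPM against 139 to 270, and Slc5a10, at 32.1 CPM against 34.6 to 60.2, were closer to the others, and Slc22a19 was highest there, at 7.14 CPM against 0.303 to 1.74. Of 5471 genes tested, 12% were higher and 9.93% lower in late-marker cells, 21.9% in either direction, and 9 of 9 members passed the edgeR test at an adjusted p under 0.05.

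The light chain Slc7a13 had 490, 404, 461, 496, 98.7, 1039 and 0 CPM in late-marker cells of libraries 1 to 7, and 9.37, 15.5, 44.6, 104, 2.06, 91.2 and 0.974 CPM in early-marker cells. It was higher in late-marker cells in 6 of 7 libraries; in library 7, 0 UMIs were found in late-marker cells, which allows up to 20.6 CPM, and 4 in early-marker cells. Its log2 fold was 4.05 ± 0.23 (edgeR, adjusted p = 2.42e-15). The glycine carrier Slc6a18 averaged 258 ± 130 CPM in late-marker cells and 25.1 ± 28.0 CPM in early-marker cells (SD, n = 7 libraries), a log2 fold of 3.26 ± 0.15, and the library ranges did not overlap. Slc6a13 averaged 64.2 ± 28.6 CPM in late-marker cells and 28.4 ± 7.53 CPM in early-marker cells, a log2 fold of 1.25 ± 0.17. The heavy chain Slc3a1 averaged 132 ± 34.0 CPM in late-marker cells and 71.4 ± 17.4 CPM in early-marker cells, higher in 7 of 7 libraries, with a log2 fold of 0.76 ± 0.13 (edgeR, adjusted p = 1.47e-05). The ranges of Slc3a1 and Slc6a13 overlapped between the classes. Cluster 3 cells in neither class were not part of the test. In libraries 3 and 4 they held more Slc7a13 (593 and 542 CPM) than late-marker cells. The same held for Slc6a18 (216 and 232, against 158 and 203 CPM) and Slc3a1 (145 and 129, against 114 and 83.4 CPM). In libraries 1, 2, 5 and 6 late-marker cells were the higher for these genes.

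The early group held Slc6a19, both light chains of the blood side and their heavy chain. Slc6a19 had 90.1, 51.2, 43.9, 34.2, 86.9, 112 and 131 CPM in late-marker cells of libraries 1 to 7, and 630, 493, 330, 326, 429, 637 and 492 CPM in early-marker cells. Every late-marker value lay below every early-marker value, and its log2 fold was -2.71 ± 0.14 (edgeR, adjusted p = 3.16e-16). Slc7a8 averaged 35.6 ± 37.3 CPM in late-marker cells and 220 ± 38.6 CPM in early-marker cells, a log2 fold of -2.91 ± 0.19. Slc7a7 averaged 50.3 ± 13.8 CPM in late-marker cells and 270 ± 37.8 CPM in early-marker cells, a log2 fold of -2.57 ± 0.15. Their heavy chain Slc3a2 averaged 42.6 ± 11.8 CPM in late-marker cells and 165 ± 26.7 CPM in early-marker cells, a log2 fold of -2.03 ± 0.15. The ranges of these genes did not overlap between the classes. The share of all tested genes with ranges apart is not given here, so for these genes and Slc6a18 this is a description. The light chain Slc7a9 differed least among them, with 97.8 ± 25.6 CPM in late-marker cells and 157 ± 23.6 CPM in early-marker cells, a log2 fold of -0.83 ± 0.13 (edgeR, adjusted p = 8.09e-06), lower in 7 of 7 libraries with overlapping ranges. Slc3a1 and Slc7a9, the chains of the cystine exchanger, thus had fold changes of opposite sign. The difference between the 2 fold changes was not tested.

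**Figure D4:**
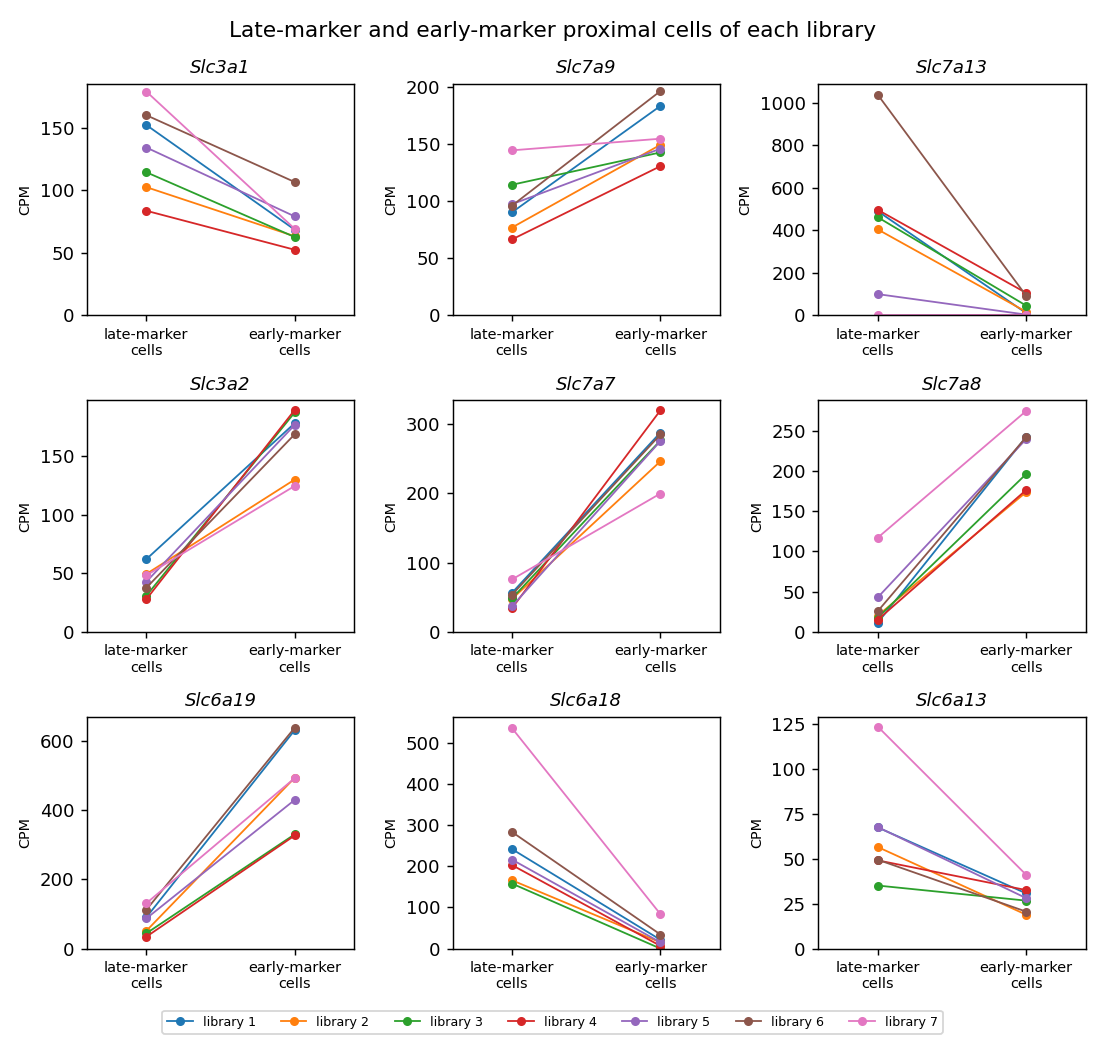
Level of each gene (CPM) in late-marker and early-marker cells of cluster 3, with a line joining the points of each library. Slc7a13, Slc6a18, Slc6a13 and Slc3a1 are higher in late-marker cells except Slc7a13 in library 7, and the other 5 genes are higher in early-marker cells.

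Within early-marker cells, libraries 3 and 4 were not low for every gene that was low there in cluster 3 as a whole: Slc3a2 had 187 and 189 CPM, against 124 to 178 in the others, and Slc7a7 had 276 and 320 CPM, against 200 to 288. Slc6a19 was still lowest in them, at 330 and 326 CPM, against 429 to 637, and so was Slc7a9, at 143 and 131 CPM, against 146 to 196. Slc7a8 had 196 and 176 CPM there, against 173 to 274 in the others. Libraries 3 and 4 had only 48 and 71 early-marker cells. Their values rested on 16 and 20 UMIs for Slc7a9, 21 and 29 for Slc3a2, 31 and 49 for Slc7a7 and 37 and 50 for Slc6a19. These differences between libraries were not tested. Of 9 tested genes of the other amino acid transport list, 2 were higher and 4 lower in late-marker cells, with a median of -0.25, against -0.83 over the 9 members and -0.00836 over all genes tested. Slc16a10 (TAT1, an aromatic amino acid carrier of the blood side) was at 8.83 ± 3.27 CPM in late-marker cells and 44.4 ± 9.42 CPM in early-marker cells, a log2 fold of -2.27 ± 0.23, and Slc43a2 (LAT4), a facilitated carrier of neutral amino acids, was at 30.8 ± 14.3 CPM in late-marker cells and 132 ± 39.3 CPM in early-marker cells, a log2 fold of -2.16 ± 0.16. Slc6a8 (creatine) and Tmem27 were lower by 0.96 ± 0.13 and 0.71 ± 0.12 on the log2 scale, and Slc1a1 and Slc6a20b were higher by 0.66 ± 0.13 and 0.45 ± 0.12. Slc6a20a, too low to be tested, averaged 18.1 ± 16.1 CPM in late-marker cells and 5.60 ± 3.44 CPM in early-marker cells. The summed level of 6 macrophage markers was 1.83 to 34.4 CPM in late-marker and 0 to 4.01 CPM in early-marker cells, and that of 5 loop markers was 220 to 461 CPM in late-marker and 163 to 372 CPM in early-marker cells; their part in the results was not tested.

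Pairs of members were seen in the same cells more, or less, often than their separate shares give. In cluster 3 cells thinned to 1000 UMIs (24875 cells, 1607 shallower ones left out), the log2 odds ratio of holding both genes was computed per library for 36 pairs. It passed a two-sided exact sign-flip permutation test over the 7 libraries for 14 pairs above 0 and 1 pair below 0, each with a p of 0.0156, the smallest that 7 libraries can give, and an adjusted p of 0.0375. On the blood side, Slc3a2 went with Slc7a8 at 1.44 ± 0.83 and with Slc7a7 at 1.18 ± 0.66 (SD, n = 7, above 0 in 7 of 7 libraries each, exact permutation). Slc7a7 went with Slc7a8 at 1.01 ± 0.30. Passing pairs also crossed the sides. The luminal Slc6a19 went with Slc7a8 at 1.32 ± 0.36, with Slc3a2 at 1.04 ± 0.23 and with Slc7a7 at 0.76 ± 0.33. On the luminal side, Slc3a1 went with Slc7a13 at 1.26 ± 0.78 and with Slc6a18 at 0.86 ± 0.42, and Slc7a13 with Slc6a18 at 1.53 ± 0.87. In cells thinned to 2000 UMIs the pair of Slc3a1 and Slc7a13 was at 0.87 and no longer passed (adjusted p = 0.0703, exact permutation). Library 7 enters the pairs of Slc7a13 with a UMI of that gene in 0.0812% of cluster 3 cells thinned to 1000 UMIs. Its log2 odds ratio of Slc7a13 was 0.0143 with Slc6a18, the lowest of 7 libraries, and 2.87 with Slc3a1, the highest. With so few cells the sign of a value near 0 can turn on the 0.5 added to each count behind the odds. The exact test nonetheless counts library 7 like any other. Without library 7 the means were 1.79 with Slc6a18 and 0.99 with Slc3a1. Slc3a1 and Slc7a9 had a log2 odds ratio of 0.12 ± 0.43, above 0 in 5 of 7 libraries, and did not pass (adjusted p = 0.581, exact permutation). Slc7a9 passed with Slc6a19 (0.89 ± 0.46), Slc3a2 (0.78 ± 0.49), Slc7a8 (0.60 ± 0.36), Slc6a13 (0.46 ± 0.25) and Slc7a7 (0.43 ± 0.29). At 2000 UMIs its pairs with Slc7a8 (0.68, adjusted p = 0.0511, exact permutation) and Slc6a13 (0.31, adjusted p = 0.417, exact permutation) no longer passed. Slc7a7 and Slc6a18 were the pair below 0 at 1000 UMIs, at -0.86 ± 0.31, below 0 in 7 of 7 libraries. The neighbours Slc6a18 and Slc6a19 were at -0.78 ± 0.56, below 0 in 6 of 7 libraries, and did not pass (adjusted p = 0.0592, exact permutation). At 2000 UMIs they passed, at -1.22 (adjusted p = 0.0331, exact permutation), as did Slc7a8 with Slc7a13 at -1.35 and Slc7a13 with Slc6a19 at -1.31.

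**Figure D5:**
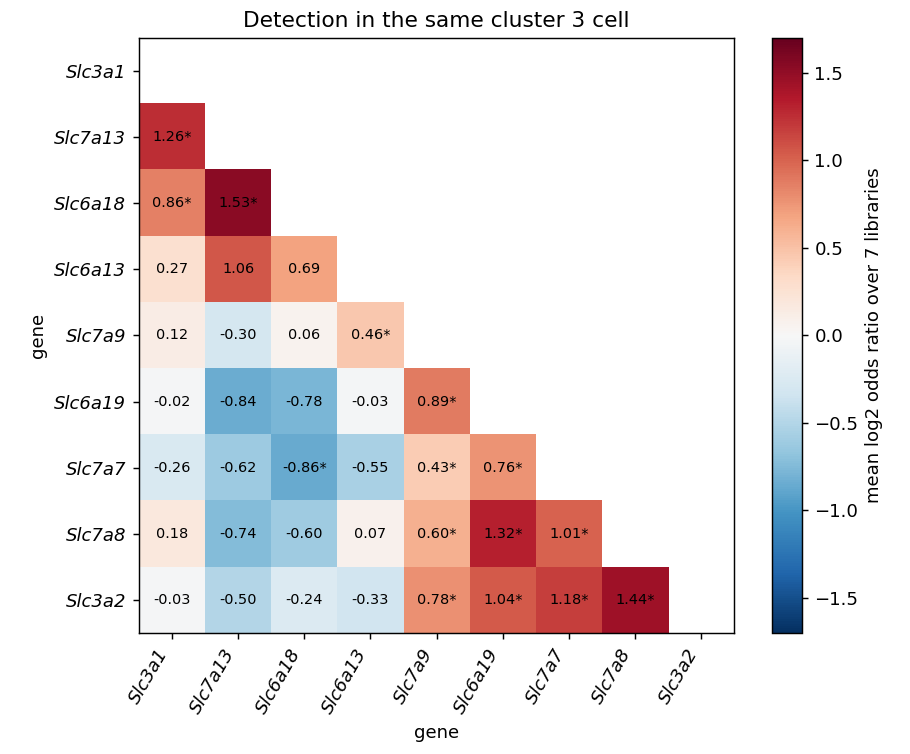
Mean log2 odds ratio over 7 libraries of finding a UMI of both genes in a cluster 3 cell thinned to 1000 UMIs, for 36 pairs; an asterisk marks an adjusted p under 0.05. Slc7a13 with Slc6a18 is highest among the marked pairs at 1.53, and Slc7a7 with Slc6a18 is lowest at -0.86. Hardly any cells of library 7 held Slc7a13.

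In cluster 9, which joins cell cycle and proximal genes, 6 of 8 tested members were lower than in cluster 3, and Slc3a2 and Slc7a8 did not pass the test. Of 7952 genes, 6.9% were higher and 16.5% lower in cluster 9, 23.4% in either direction, with a median log2 fold of -0.26. The median over the 8 members was -1.61. The largest difference was that of Slc7a13, at -3.74 ± 0.52 (edgeR, adjusted p = 6.36e-09), followed by Slc6a18 at -1.76 ± 0.38, Slc6a19 at -1.64 ± 0.31, Slc3a1 at -1.63 ± 0.35, Slc7a7 at -1.60 ± 0.34 and Slc7a9 at -1.27 ± 0.29. Slc3a2 was at -0.32 ± 0.33 (edgeR, adjusted p = 0.565). Slc7a8 was at -0.13 ± 0.31 (edgeR, adjusted p = 0.832) after scaling. Its unscaled level in cluster 9 was 311, 150, 161 and 112 CPM in libraries 1, 2, 5 and 6, from 9, 28, 552 and 6 cells. In cluster 3 of the same libraries it was 140, 94.2, 155 and 109 CPM. Cluster 9 was thus higher in 4 of 4, but only slightly in libraries 5 and 6. As a percentage of the cluster 3 level of the same library (medians of 4 libraries), Slc3a1 was at 62.2%, Slc7a7 at 61.4%, Slc7a9 at 73.0%, Slc6a19 at 64.2%, Slc6a18 at 48.9% and Slc7a13 at 15.7%, beside a median of 51.8% over the 7 proximal tracers, which ran from 18.2% to 109%. Late markers summed to 137 CPM in cluster 9 and 909 CPM in cluster 3, and early markers to 1034 CPM in cluster 9 and 1163 CPM in cluster 3; their part in the differences was not tested. Of 601 cells of cluster 9, 552 came from library 5, and without that library Slc7a7 and Slc7a9 no longer passed (edgeR, adjusted p = 0.110 for Slc7a7 and 0.0782 for Slc7a9). Without a term for the library, Slc3a1, Slc7a7, Slc7a9 and Slc6a19 did not pass (edgeR, adjusted p = 0.089, 0.0607, 0.124 and 0.155). Of the 12 other amino acid transport genes tested, 3 were higher in cluster 9 and 7 lower, the higher ones being Slc1a5 at 1.79 ± 0.42, Slc38a2 at 1.01 ± 0.34 and Slc38a1, which rested on 4 UMIs in cluster 9 and is given no fold.

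Slc7a7 and Slc3a2 are known in macrophages, and macrophage-like cluster 11 was compared with the other leukocyte clusters (10, 12, 13, 14 and 15). No tested member passed at an adjusted p under 0.05, with 0 of 8 by edgeR and 0 of 8 by DESeq2. At that threshold edgeR called 15% of all genes, 10.6% higher and 4.49% lower. Slc7a7 was at a log2 fold of 0.70 ± 0.45 (edgeR, adjusted p = 0.353), from 26 UMIs in 228 cells, with 40.0, 68.5, 0, 43.9, 46.2, 39.6 and 82.0 CPM in libraries 1 to 7. Slc3a2 was at 0.17 ± 0.34 and Slc7a8 at 0.79 ± 0.45. Cluster 11 also held proximal RNA, the 10 proximal markers summing to 1489 to 9851 CPM. Slc7a13, at 1.25 ± 0.60 (edgeR, adjusted p = 0.172), passed when library 2 was left out (edgeR, adjusted p = 0.0381) and when the 5% of cells with the most UMIs were left out (0.0133), and Slc6a19 passed without library 6 (0.0445). Of the 12 other amino acid transport genes tested, 1 passed, the taurine carrier Slc6a6, higher in cluster 11 by 0.98 ± 0.32 (edgeR, adjusted p = 0.0222).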

How the data were processed

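Single cells of whole kidney were captured with the Chromium 3′ method, per the labels. The submitters' processing notes name Cell Ranger 1.3, the aligner STAR and the build mm10, also given as GRCm38.p4. The deposited matrix holds the UMI count of each gene in each cell, and a row of cluster numbers that the authors set; how cells were filtered, how doublets were treated and how clusters were made is not given in the sources used here. Counts were summed per library and cluster (at least 5 cells) or per library and marker class (at least 10 cells), and tested with edgeR 4.0.16 (quasi-likelihood, TMM scaling, low-count filter, library as a term, Benjamini-Hochberg adjustment over all genes tested, threshold 0.05) in R 4.3.3. The library is a pairing by origin. No label links a library to a sample, and each was taken to hold the cells of 1 kidney, so cell types were compared within it. DESeq2 1.42.0 was used for other size factors and as another test. Scripts were tested on simulated data. Libraries held 5883163, 14168771, 4217169, 7433555, 49997616, 26001207 and 14436028 UMIs (1 to 7). No doublet caller was run; leaving out the 5% of cells with the most UMIs in each library was an alternative. The others were no low-count filter, no library term, thinning to 1000 UMIs (for pairs in the same cells, to 2000 UMIs and none), sums of at least 20 cells, a class threshold of 1 marker UMI and leaving out each library. Intervals cover counting error only. The members, gene lists and tests were chosen with earlier results of these data known. All members were named, and of a list of 29 other amino acid transport genes, 26 of them measured, up to 10 per comparison with the largest change among those called with an average log2 CPM of at least 4, Tmem27, Slc6a20a, Slc6a20b, Slc1a1 and Slc16a10 always; Slc38a1, below that level, was named after its value was seen. A planned link of libraries to genotypes could not be made, so genotypes were not compared. The tracer genes were 7; 1 further tracer that was planned, and 1 genotype, are not reported here.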

Additional observations from a re-analysis of the deposited data

Results flagged for a closer look

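In 4 of 27 groups of 7 libraries (each member in cluster 3, in late-marker cells and in early-marker cells), 1 library lay far from the others by Dixon's test, which chance does in about 1 of 20 groups. All 4 were values of library 7, the library with Xist and without Y-linked UMIs. In late-marker cells, of which library 7 had 57, Slc7a8 was at 116.9 CPM, with 42.7 CPM in the next library, Slc6a13 was at 123.8 CPM, with 67.7 CPM in the next, and Slc6a18 was at 536.3 CPM, with 284 CPM in the next. In early-marker cells Slc6a18 was at 83.7 CPM, with 34.2 CPM in the next library. These late-marker values rested on 17, 18 and 78 UMIs, and the early-marker value on 344. In cluster 3 of library 7 the late markers Slc22a30, Atp11a and Acsm3 were at 24.7, 38.0 and 0.0940 CPM, against at least 98.9, 108 and 3.27 CPM in the other libraries; their part in these values was not tested.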

How the results depend on the processing

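The directions and calls of the members in cluster 3 against the other tubule clusters (8 genes) and in late-marker against early-marker cells (9 genes) held under all 14 alternatives run for each. Of 786 values of tested members and pairs under the alternatives, 114 no longer passed and 17 newly passed, and 24 changed sign, 23 of which passed neither as reported nor under the alternative. The count of genes called moved by over 1.5 times as follows. Cells thinned to 1000 UMIs gave 2484 genes for cluster 3 against other tubule (4718 as reported), 962 for cluster 9 (1862), 632 for cluster 11 (1196) and 685 for late-marker against early-marker cells (1200), with fewer genes tested. Without the low-count filter 7843 genes were called for cluster 3 against other tubule. With no replicate block, that is without the pairing by library, 1171 genes were called for cluster 9 and 551 for late-marker against early-marker cells; beside the 4 members named for cluster 9, the block changed the call of no other member. Leaving out 1 library gave 903 to 1729 genes for cluster 9, the lowest without library 5. For pairs in the same cells, 15 passed as reported and 25 without thinning, where Slc3a1 and Slc3a2 were at 0.48 (adjusted p = 0.0256, exact permutation), against -0.03 as reported; the cause was not tested. Thinned to 2000 UMIs, 17 pairs passed, 13 above 0 and 4 below, with 3 of the 15 no longer past the threshold and 5 newly past it. Leaving out any 1 library gave 0 to 0 pairs past the adjusted threshold, since the smallest p of 6 libraries is 0.03125, with 15 to 19 pairs at an unadjusted p under 0.05 (exact permutation), and the 15 reported pairs kept their sign. The number of members highest in cluster 3 was 5 to 7 under the alternatives, the lowest with sums of at least 20 cells, where cluster 12 was 1 library and was highest for Slc7a7 and Slc6a19. The DESeq2 Wald test moved the median log2 fold of all genes to -0.15 for cluster 9, against -0.26 as reported, and to 0.0687 for cluster 11, against 0.19. Clusters 9 and 11, with 601 and 228 cells, limit what can be seen there.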

Other observations

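Over the 96 sums of a library and cluster, the genes whose log2(CPM + 10) ran most like that of a member were found by Pearson's r; the sums share libraries and the deep split between cluster 3 and the rest, so r is a description. Slc7a9 was most like Amn, which anchors cubilin in the luminal membrane (Pearson r = 0.84), Gpx3, the secreted glutathione peroxidase (0.82), and Slc34a1, the phosphate carrier (0.82). Slc6a19 was most like Slc34a1 (0.85), Snhg11 (0.83) and Gpx3 (0.82). Slc3a1 was most like Hykk, a hydroxylysine kinase (0.85), Slc26a1, a sulfate carrier (0.82), and Slc23a1, a vitamin C carrier (0.80). For Slc7a7 these genes were Snhg11 (0.78), Slc5a12, a lactate carrier and early marker (0.78), and Cryl1 (0.72). For Slc7a13 they were Ces1f, a carboxylesterase (0.79), Cyp4b1, a cytochrome P450 (0.77), and Serpinf2, the plasmin inhibitor (0.76), and for Slc6a18 they were BC021785 (0.77), D630029K05Rik (0.76) and Slc47a1, an organic cation exporter (0.76). Slc7a8 went with Map7 (0.77), Slc25a39 (0.75) and Cryz (0.74), and Slc6a13 with Ahcy, Acot12 and Cgref1 (0.71 each). Slc3a2 had no gene above 0.62, the value of Mrpl24.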
